A study of Homo sapiens with 18 samples.

Results

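MondoA, the product of MLXIP, was depleted in RPE-1 cells that also received doxorubicin (DXR), and their transcripts were set against those of DXR-treated cells that received a control siRNA. RPE-1 is an established human line of retinal pigment epithelium, immortalized with hTERT. The members are 6 of the series' 18 RNA-seq libraries, chosen by their labels: 3 from cells given an siRNA against MondoA and DXR (siMondoA DXR) and 3 from cells given the control siRNA and DXR (siControl DXR). Both groups were transfected for 2 days with Lipofectamine RNAiMax and then held for 3 days in DXR at 150 ng/ml. Comparison groups, of 3 libraries each, were the siControl and siMondoA cells left untreated, and cells given an siRNA against MLX and DXR (siMlx DXR). The untreated cells are listed with 2 days of transfection and no DXR, so time after transfection may differ between DXR-treated and untreated cells. The labels do not say how many siRNA sequences made up each siRNA, nor that the libraries of a group are separate cultures, so each p-value reflects no more than how these libraries vary, which may be technical.

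MondoA is a transcription factor of the basic helix-loop-helix leucine zipper class that accumulates in the nucleus when glucose-6-phosphate rises. It binds DNA as a heterodimer with MLX, at paired E-boxes called carbohydrate response elements, and TXNIP and ARRDC4, which encode alpha-arrestins that restrain glucose uptake, are its best known targets. Doxorubicin intercalates into DNA and traps topoisomerase II, and the breaks that follow activate p53 and stop the cell cycle.

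Total counts ran from 18392192 to 21858817 in the 6 libraries, and 13676 of 33121 listed genes had enough counts to be tested. Levels are in CPM (counts per 1000000 counts after scaling), in replicate order 1, 2 and 3. A gene is said to have risen or fallen where the Benjamini-Hochberg adjusted p of edgeR's quasi-likelihood test was at most 0.05, and fold changes are log2 of siMondoA over siControl in DXR. The first principal component of the 6 libraries, with 51.9% of their variance, separated the groups, with every siControl library below 0 and every siMondoA library above it. Of 16 retinal pigment epithelium markers 7 had enough counts to be tested. KRT8 stood at 650.4, 686.1 and 674.2 CPM in siControl DXR and OTX2 at 14.1, 14.5 and 12.8 CPM, whereas RPE65, the visual cycle isomerase, had 9 and 8 counts over the 3 siControl and the 3 siMondoA libraries, and DCT had 0 in both.

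The siRNA target was low in every siMondoA library. MLXIP (chr12:122078722-122147347, GRCh38) stood at 64.04, 63.2 and 66.5 CPM in the siControl DXR libraries and at 1.63, 2.58 and 2.86 CPM in the siMondoA DXR libraries. No library of either group came near the other group, and the mean level left was 3.65% of the control (log2 -4.77, SE 0.13, adjusted p = 3.15e-15). MLX, the partner of MondoA, went the other way. It stood at 26.4, 26.8 and 26.4 CPM in siControl DXR against 43.5, 42.5 and 45.4 CPM in siMondoA DXR, with no overlap (log2 0.72, SE 0.06, adjusted p = 5.72e-08). MLX had risen with siMondoA in untreated cells too (log2 0.91).

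The promoter of TXNIP is printed because it holds the element that MondoA is known to bind. The RefSeq sequence (GRCh38.p14, 250 bases before to 50 bases after the start, 5′ to 3′ on the gene's strand) holds a match to the carbohydrate response element, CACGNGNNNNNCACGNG, beginning 88 bases before the start and given in capitals. Only 0.142% of the promoters of tested genes (15 of 10592) hold a match on either strand, and 1 of 11 promoters of the listed glucose-responsive genes, that of TXNIP.
TXNIP, chr1:145996530-145996829, minus strand: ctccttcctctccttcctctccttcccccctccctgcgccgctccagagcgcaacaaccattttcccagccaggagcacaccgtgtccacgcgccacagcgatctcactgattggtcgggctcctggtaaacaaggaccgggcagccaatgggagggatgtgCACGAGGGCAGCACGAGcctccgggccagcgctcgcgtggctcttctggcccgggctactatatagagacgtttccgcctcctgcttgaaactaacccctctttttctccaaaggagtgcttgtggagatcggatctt

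TXNIP (chr1:145992435-145996600) stood at 52.5, 66.7 and 69.8 CPM in the siControl DXR libraries and at 4.16, 3.85 and 4.85 CPM in the siMondoA DXR libraries. All siMondoA libraries lay far below the lowest control (log2 -3.88, SE 0.24, adjusted p = 4.18e-10). Untreated siControl cells had 10.9, 10.9 and 17.6 CPM and untreated siMondoA cells 1.39, 1.26 and 0.907 CPM. The DXR-treated siMondoA libraries therefore stood below even the untreated controls. With siMlx in DXR TXNIP was at 6.4, 13.3 and 8.64 CPM, and siMondoA was lower than siMlx (log2 -1.15, SE 0.27, adjusted p = 0.00206). ARRDC4, the other alpha-arrestin target, was sparse: it stood at 1.58, 1.23 and 0.863 CPM in siControl DXR and at 0.618, 0.152 and 0.33 CPM in siMondoA DXR (log2 -1.74, SE 0.56, adjusted p = 0.0267). That call was lost without siControl DXR replicate 1 or 2 and without siMondoA DXR replicate 2 or 3.

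Of 13 tested glucose-responsive targets of MondoA or its paralogue ChREBP, 4 fell and 0 rose, beside 13.9% of all tested genes that fell and 10.9% that rose. Besides TXNIP and ARRDC4 they were PFKFB3, which makes the activator of phosphofructokinase (log2 -0.26, adjusted p = 0.0238), and ACACA, acetyl-CoA carboxylase (log2 -0.18), a call lost in 6 alternatives, among them leaving out any siMondoA DXR library. The list's median was log2 -0.16, against 0.01 for all tested genes. Its count of falls was 2 without siControl DXR replicate 1, 2 or 3 or without siMondoA DXR replicate 3, and 1 without siMondoA DXR replicate 2. In the MAX-MLX network, the wider family of dimerizing factors, 4 of 11 tested genes fell and 1, MLX, rose. The falls include MLXIP, the siRNA target, whose fall is the knockdown itself. MXD1, a MAX-binding repressor, fell by log2 0.41 (adjusted p = 0.00133), MAX fell by 0.23 (adjusted p = 0.0144) and MYC fell by 0.24 (adjusted p = 0.0167). Falls numbered 2 without siMondoA DXR replicate 2.

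**Figure D1:**
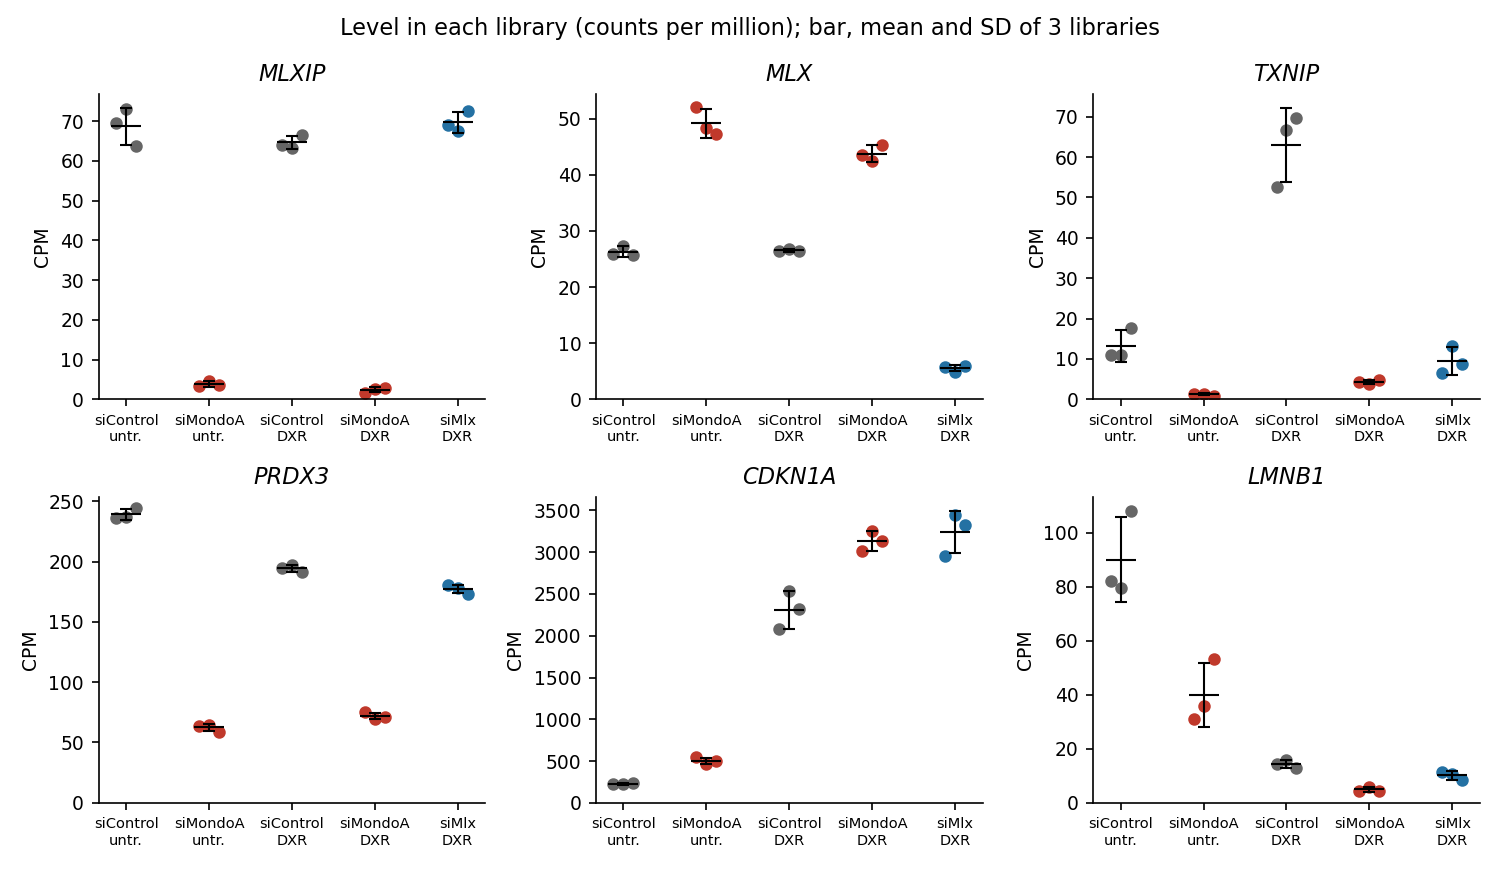
Levels of 6 genes in CPM (y axis, from 0) in each library of 5 groups (x axis), with 1 point a library and a bar for the mean and SD of 3 libraries. MLXIP is at 1.63 to 2.86 CPM in the siMondoA DXR libraries and TXNIP at 3.85 to 4.85 CPM, below every siControl DXR library.

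Across all genes, 1490 were higher (10.9% of 13676) and 1900 lower (13.9%) in siMondoA DXR than in siControl DXR, 113 and 294 of them by at least 2-fold. With DESeq2 the count higher by at least 2-fold was 65. Of the genes higher in DXR, 1072 (71.9%) were also higher with siMondoA in untreated cells, where 3185 genes (23.3%) were higher, so that the shared genes made up 33.7% of those. Of the genes lower in DXR, 1634 (86%) were also lower in untreated cells, 51.2% of the 3190 (23.3%) lower there. These comparisons share no library. Calls in opposite directions were few: 30 genes were higher in DXR and lower in untreated cells, and 12 the reverse. Under upper-quartile scaling the untreated split was 3813 higher and 2813 lower.

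Counting genes whose groups did not overlap and whose higher mean reached 5 CPM, the 12 largest falls began with MLXIP and TXNIP, and 5 of the other 10 stand in the lists of mitosis, replication, repair or nucleotide synthesis. PABIR2 (listed as FAM122B), an inhibitor of the phosphatase PP2A, stood at 25.3, 23.9 and 24.2 CPM against 4.16, 4.61 and 4.19 CPM in siMondoA (log2 -2.50, SE 0.15). BTBD10 stood at 54.9, 59.6 and 58.7 CPM against 11.1, 11.7 and 11.2 CPM (log2 -2.35, SE 0.07, adjusted p = 8.49e-15). Both were narrow within each group. RRM2, the small subunit of ribonucleotide reductase, went from 79.4, 93.1 and 80.2 CPM to 13.5, 24.8 and 15.97 CPM (log2 -2.21, SE 0.21). CCNA2, which encodes cyclin A2, went from 28.2, 34.7 and 26.1 CPM to 5.45, 8.26 and 5.95 CPM (log2 -2.17, SE 0.21). In both genes siMondoA replicate 2 was the highest of its group. That no siMondoA library reached a control was a condition for being named here. TROAP, a spindle protein gene, fell by log2 2.15, NCAPH, a condensin subunit, fell by 2.15, the exonuclease gene EXO1 fell by 2.14, the spindle gene CKAP2L fell by 2.08, and the centrosomal gene WDR62 fell by 2.07. ASF1B, a histone chaperone gene, went from 16.1, 16.02 and 14.4 CPM to 2.53, 5.27 and 2.97 CPM. Adjusted p for these 6 genes lay between 5.35e-07 (WDR62) and 4.81e-05 (EXO1).

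Of the 12 largest rises under the same limits 6 are on the list of interferon-stimulated genes. GBP4, a guanylate-binding GTPase, stood at 3.26, 1.23 and 2.35 CPM in siControl DXR and 12.97, 6.99 and 21.4 CPM in siMondoA DXR (log2 2.59, SE 0.34, adjusted p = 1.23e-05). TNFSF10, the death ligand TRAIL, went from 1.32, 0.665 and 1.05 CPM to 5.45, 2.63 and 8.59 CPM (log2 2.44, SE 0.45, adjusted p = 0.000806). In both, siMondoA replicate 3 was highest and siControl replicate 2 lowest. BATF2, a basic leucine zipper factor, went from 8.92, 5.12 and 7.1 CPM to 32.8, 27.9 and 45.6 CPM (log2 2.33, SE 0.18). IFIT2, which binds viral RNA, was the most abundant of them, at 344.9, 207.8 and 261.1 CPM against 1145, 979.4 and 1499 CPM (log2 2.15, SE 0.19, adjusted p = 9.04e-08). OASL rose by log2 2.14, RSAD2 (viperin) by 1.95, the RNA exonuclease gene ISG20 by 1.75, the transcription factor gene KLF4 by 1.65, the transporter gene SLC15A3 by 1.56, RTP4 by 1.55 and OAS2, a sensor of double-stranded RNA, by 1.55. XAF1 went from 5.81, 2.46 and 6.52 CPM to 13.9, 14.03 and 31.7 CPM (adjusted p = 0.00174). The calls of XAF1, SLC15A3, RTP4 and OAS2 were lost with DESeq2.

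**Figure D2:**
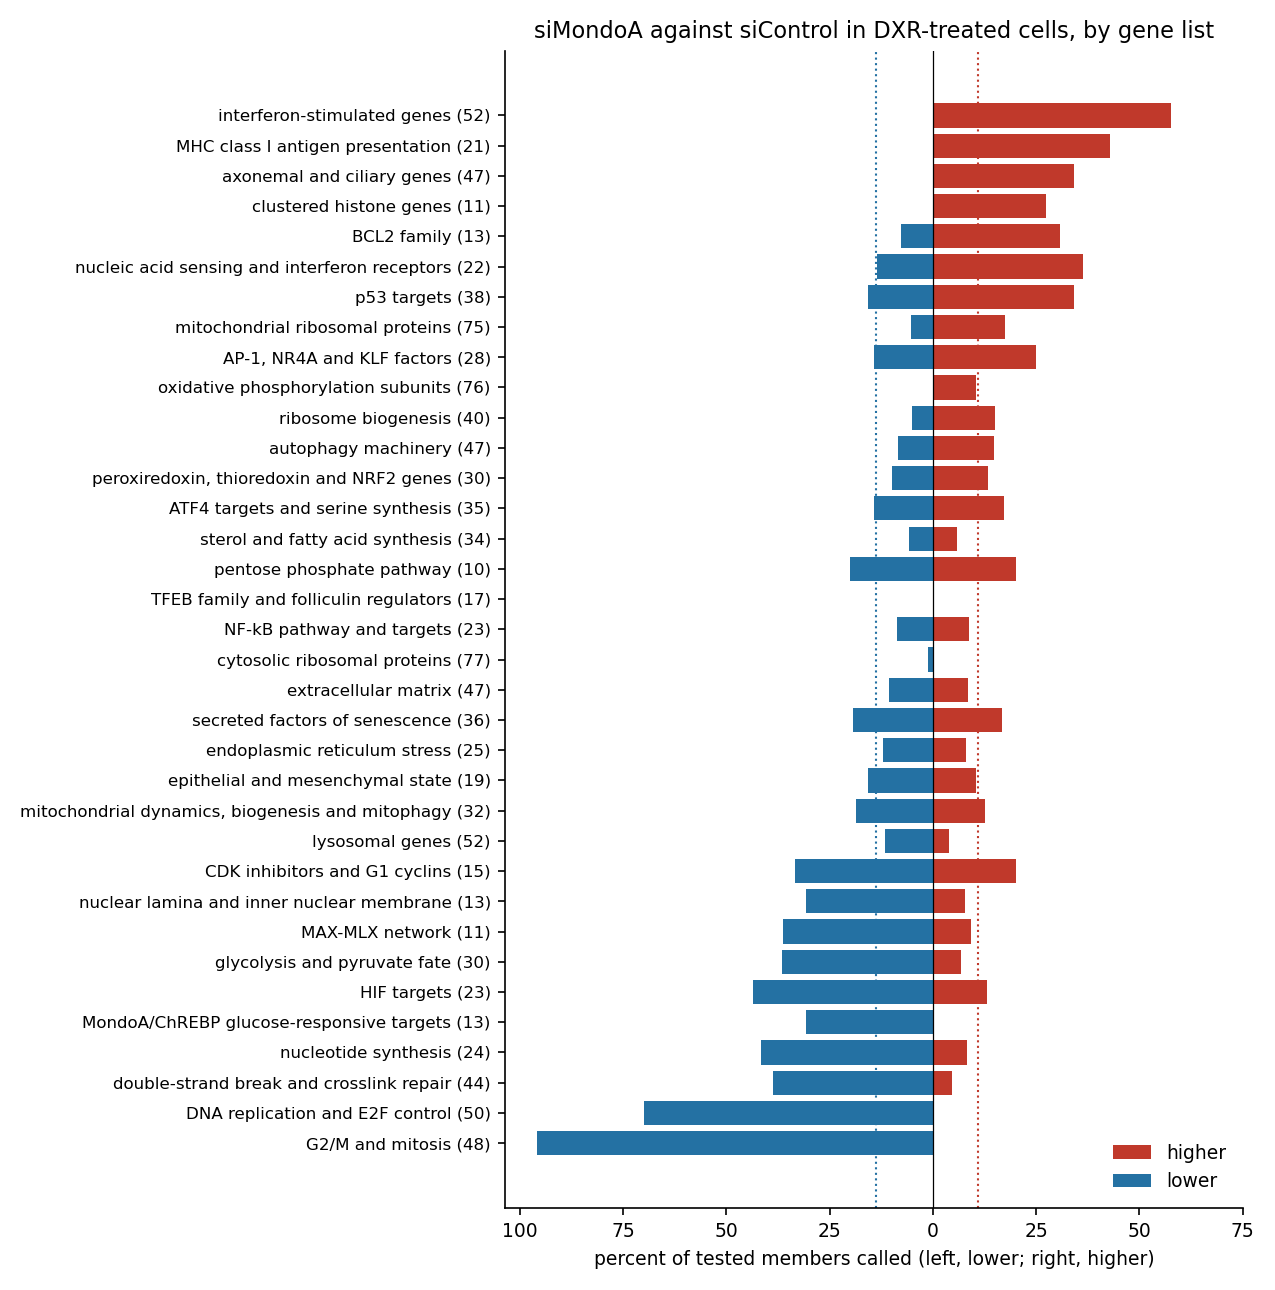
Percent of each list's tested members (number in brackets) that were higher (right, red) or lower (left, blue) in siMondoA DXR than in siControl DXR, with dotted lines at 10.9% and 13.9%, the shares over all tested genes. Mitosis and replication lists reach furthest to the left and interferon-stimulated genes furthest to the right.

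Of the 39 lists, that of G2 phase and mitosis had the largest share of called members. FOXM1 and MYBL2 encode transcription factors that switch on late cell-cycle genes, cyclins and kinases such as PLK1 drive entry into mitosis, and CDC20 directs exit from it. Of 48 tested genes of G2 phase and mitosis, 46 fell and 0 rose, against a background of 13.9% lower. Their median was log2 -1.54, against 0.01 for all genes, and in 46 all siMondoA libraries were below all siControl libraries, as for 20.1% of all genes. FOXM1 stood at 55.1, 61.7 and 56.7 CPM against 14.2, 21.2 and 19.9 CPM (log2 -1.65, SE 0.15, adjusted p = 8.99e-08). MYBL2 stood at 26.2, 28.6 and 23.1 CPM against 6.4, 10.2 and 6.94 CPM (log2 -1.71, SE 0.17). BIRC5, the gene of survivin, went from 30.9, 39.5 and 37.4 CPM to 7.92, 11.9 and 8.76 CPM (log2 -1.91) and KIF20A, a cytokinesis motor gene, from 21.6, 27.5 and 27.4 CPM to 5.84, 10.2 and 7.76 CPM (log2 -1.68). The lowest control was above the highest siMondoA library in all 4. MKI67, the proliferation marker Ki-67, spread more widely: it stood at 41.3, 50.8 and 59.5 CPM in siControl and 6.51, 18.1 and 16.1 CPM in siMondoA (log2 -1.89, SE 0.37, adjusted p = 0.000804). The range over the 46 was from log2 -2.34 (CENPA, a centromeric histone) to -0.28 (BUB3, a spindle checkpoint gene).

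The libraries of a group differed in this list. Relative to the siControl DXR mean, its median per library was log2 -0.15, 0.12 and 0.02 in siControl DXR and -1.85, -1.09 and -1.38 in siMondoA DXR. Replicate 1 was lowest for 42 of the 48 genes in siControl and for 43 in siMondoA, and replicate 2 was highest for 36 and 43. Leaving out any 1 library left 46 falls. The untreated siControl libraries were at 1.75, 1.79 and 2.14 and the untreated siMondoA libraries at 0.21, 0.37 and 0.95 on the same scale, all above the siMondoA DXR libraries. The siMlx DXR libraries were at -0.98, -0.83 and -0.92. Tested directly, 16 of the 48 were lower with siMondoA than with siMlx in DXR and 0 higher, beside 20% and 18.9% of all genes.

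Promoters of this list share letters that the rule did not use. The cell-cycle homology region core, TTTGAA on either strand, occurs in 26 of the 40 promoters matched (65%), against 9.84% of 10592 promoters of tested genes, and in 1 of 41 promoters of the replication list (2.44%). The CCAAT box, CCAAT on either strand, occurs in 67.5% of them against 36.3%. PLK1, CDC20 and CCNB2 are printed as examples that hold the core (in capitals), chosen for that after their values were seen. Each window is 100 bases of a RefSeq promoter, GRCh38.p14.
PLK1, chr16:23678815-23678914, plus strand: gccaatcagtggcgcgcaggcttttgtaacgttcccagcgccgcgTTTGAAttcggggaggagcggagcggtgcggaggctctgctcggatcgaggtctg
CDC20, chr1:43358871-43358970, plus strand: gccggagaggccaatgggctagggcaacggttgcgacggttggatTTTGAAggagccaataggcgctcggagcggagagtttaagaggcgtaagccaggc
CCNB2, chr15:59105072-59105171, plus strand: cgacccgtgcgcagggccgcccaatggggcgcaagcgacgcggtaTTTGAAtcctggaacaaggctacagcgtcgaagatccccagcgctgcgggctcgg

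PLK1, a mitotic kinase, stood at 28.1, 37.9 and 34.3 CPM against 8.2, 11.3 and 9.64 CPM (log2 -1.78, SE 0.19). CDC20 went from 26.3, 32.6 and 26.4 CPM to 7.3, 12.5 and 8.43 CPM (log2 -1.58, SE 0.19). CCNB2, cyclin B2, went from 11.9, 13.5 and 14.7 CPM to 3.59, 6.23 and 5.01 CPM (log2 -1.42, SE 0.21). MYBL2, AURKB and CCNB1, which also fell, hold no match in their windows. A match is a description of letters and not a site.

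Replication genes fell too, by less. The list of replication and E2F genes had 50 tested members, of which 35 fell and 0 rose, against a background of 13.9% lower. Its median was log2 -0.67. UHRF1, a reader of hemimethylated DNA, stood at 35.4, 29.6 and 32.99 CPM against 13.2, 13.7 and 12.5 CPM (log2 -1.31, SE 0.12, adjusted p = 6.51e-08). DTL, a ubiquitin ligase adaptor, went from 17.1, 15.4 and 13.1 CPM to 3.65, 4.56 and 4.13 CPM (log2 -1.88). CDC6, a licensing factor, went from 20.8, 17.4 and 17.6 CPM to 4.997, 7.45 and 6.22 CPM (log2 -1.57) and E2F1 from 11.3, 10.7 and 8.44 CPM to 3.37, 4.36 and 2.92 CPM (log2 -1.50). No control library was as low as any siMondoA library in these 4. The median of the list in untreated cells was log2 -1.45. The interaction test, which asks whether the log2 effect of siMondoA differs between DXR-treated and untreated cells, passed for 25 of the 50, all with the effect higher in DXR (background 5.84% in that direction). For the mitosis list it passed for 2 in that direction and 1 in the other. DXR against untreated siControl cells, a comparison that uses the same siControl DXR libraries, gave this list a median of log2 -1.56.

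**Figure D3:**
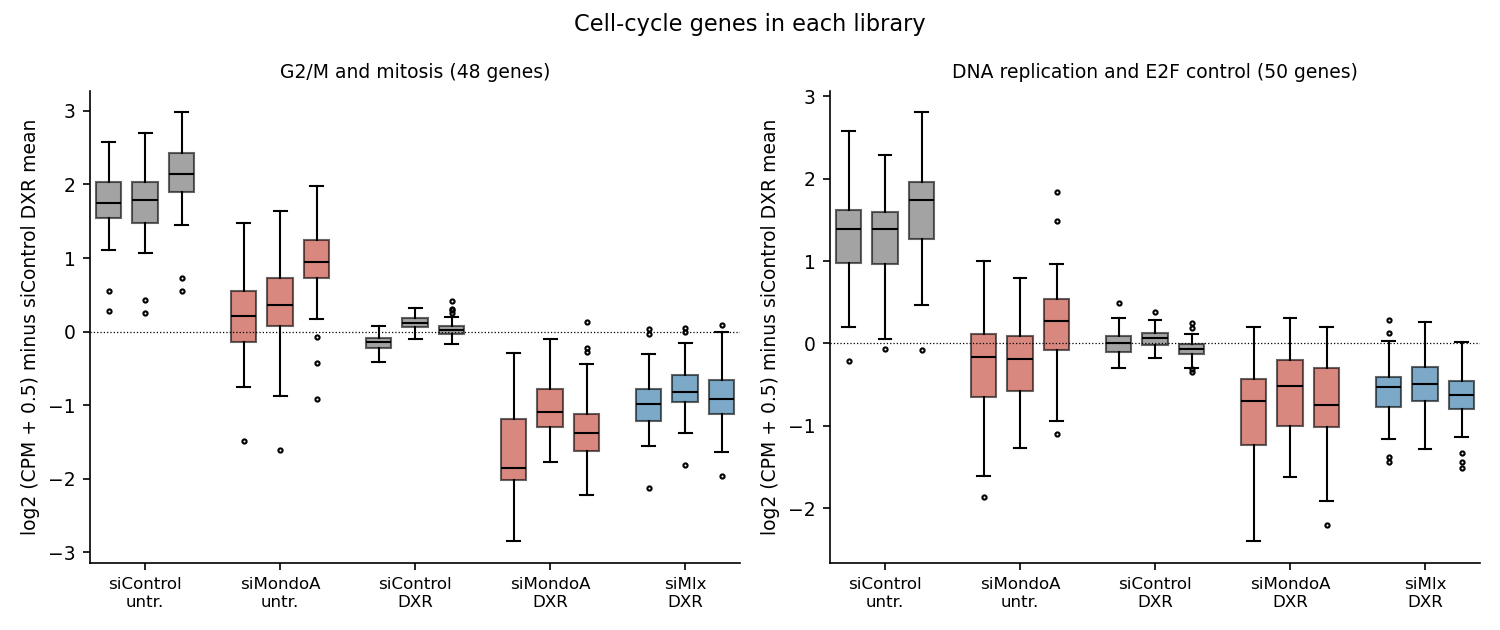
Log2 (CPM + 0.5) of each list gene minus its siControl DXR mean (y axis), as 1 box a library in 5 groups (x axis), with the median as a line, the quartiles as the box and outlying genes as points. The siMondoA DXR medians lie at -1.85 to -1.09 for mitosis and at -0.74 to -0.52 for replication, below every siControl DXR median.

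Nucleotide synthesis and repair genes fell more often than they rose, and cell-cycle brakes moved in both directions. Of 24 nucleotide synthesis genes 10 fell and 2 rose, beside 13.9% and 10.9% of all tested genes, which are also the shares to set beside the counts of repair genes. TK1, thymidine kinase, stood at 17.6, 19.4 and 20.2 CPM against 5.67, 7.14 and 5.62 CPM (log2 -1.63, SE 0.14), PPAT fell by log2 0.56 and GMPS fell by 0.32, while ATIC and IMPDH2, of purine synthesis, rose by 0.20 and 0.22 (1 rise without siMondoA DXR replicate 2). Of 44 genes of double-strand break and crosslink repair 17 fell and 2 rose (11 fell without siMondoA DXR replicate 1). CHEK1, a checkpoint kinase gene, fell by log2 0.71, FANCD2 fell by 1.19 and RAD54L fell by 1.21, and the end-binding ATPase gene RAD50 rose by 0.33. FANCF rose by 0.41 (adjusted p = 0.0283), and rises numbered 1 without siControl DXR replicate 3 or siMondoA DXR replicate 2.

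Among 15 tested cyclin-dependent kinase inhibitors and G1 genes 3 rose and 5 fell, beside 10.9% and 13.9% of all tested genes. CDKN1A, the p53 target p21 that inhibits these kinases, stood at 2079, 2534 and 2322 CPM in siControl DXR and 3011, 3250 and 3138 CPM in siMondoA DXR (log2 0.44, SE 0.07, adjusted p = 0.000215). It was at 222.8, 220.0 and 241.1 CPM in untreated controls, so the DXR groups were both high. CDKN2A, the locus of p16, stood at 147.7, 125.6 and 122.4 CPM against 180.8, 152.4 and 183.6 CPM (log2 0.39, SE 0.11, adjusted p = 0.017), a call lost in 4 alternatives. CDKN1B, p27, rose by 0.39 (adjusted p = 6.36e-05). CDK2 fell from 29.04, 32.1 and 29.7 CPM to 15.4, 15.7 and 16.2 CPM (log2 -0.94), and RBL1 fell by 1.22, CDKN2C fell by 0.94, CDKN2D fell by 0.47 and CDK6 fell by 0.35. Of 13 lamina genes 4 fell and 1 rose. LMNB1, the gene of lamin B1, whose loss is a known feature of senescent cells, stood at 14.5, 15.8 and 12.9 CPM against 4.43, 5.98 and 4.35 CPM (log2 -1.54, SE 0.22, adjusted p = 3e-05). TMPO fell by 0.76, LBR fell by 0.44 and LEMD3 fell by 0.24, and LMNA, for lamins A and C, rose by 0.28.

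Interferon-stimulated genes were higher with siMondoA in DXR. Type I interferons signal through their receptor to transcription factors, among them IRF9, which bind interferon-stimulated response elements and switch on antiviral genes. In 27 of the 41 promoters of this list that RefSeq's table holds (65.9%) the half-site repeat TTTCNNTTTC occurs on either strand, against 2.91% of the promoters of tested genes. CXCL10, ISG20 and IFIT3 are printed as examples that hold it (capitals, either strand), chosen after their values were seen. BATF2, XAF1 and IRF1, which also rose, hold no match in their windows.
CXCL10, chr4:76023648-76023747, minus strand: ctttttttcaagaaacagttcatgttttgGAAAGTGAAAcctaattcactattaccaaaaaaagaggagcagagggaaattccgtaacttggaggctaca
ISG20, chr15:88638902-88639001, plus strand: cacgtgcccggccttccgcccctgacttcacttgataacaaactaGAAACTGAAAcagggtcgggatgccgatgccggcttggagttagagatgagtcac
IFIT3, chr10:89327830-89327929, plus strand: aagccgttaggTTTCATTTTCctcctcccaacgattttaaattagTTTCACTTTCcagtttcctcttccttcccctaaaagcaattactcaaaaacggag

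Of 52 tested interferon-stimulated genes 30 rose and 0 fell, against a background of 10.9% higher, and their median was log2 0.78. In 45 all siMondoA libraries lay above all siControl libraries, as for 18.8% of all genes. CXCL10, a chemokine that draws T cells, was low: 0.408, 0.256 and 0.144 CPM in siControl and 3.31, 1.47 and 4.19 CPM in siMondoA (log2 3.45, SE 0.47, adjusted p = 2.85e-05). ISG20 stood at 7.999, 3.53 and 5.51 CPM against 16.1, 11.9 and 29.5 CPM (log2 1.75, SE 0.28). IFIT3 stood at 615.3, 442.5 and 532.5 CPM against 1007, 1013 and 1233 CPM (log2 1.03, SE 0.26). IRF1, an interferon-responsive factor, was at 30.1, 28.1 and 28.3 CPM against 49.5, 43.4 and 57.7 CPM (log2 0.80, SE 0.11, adjusted p = 1.59e-05). OASL was at 38.8, 16.8 and 25.9 CPM against 108.8, 86.5 and 165.2 CPM (log2 2.14, SE 0.30). No pair of groups overlapped in these 5. Replicate 3 was the highest siMondoA library for 47 of the 52 genes, and replicate 2 the lowest siControl library for 48.

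That list's medians per library, relative to the siControl DXR mean, were log2 0.25, -0.28 and 0.02 in siControl DXR and 0.71, 0.58 and 0.97 in siMondoA DXR. In siMlx DXR they were -1.34, -2.32 and -2.14, and in untreated cells -1.23, -2.23 and -2.33 with siControl and -2.24, -1.82 and -2.52 with siMondoA. All 52 were higher with siMondoA than with siMlx in DXR in the direct test (background 18.9% higher). The interaction passed for 20 of the 52, all higher in DXR (background 5.84%), but for 5 without untreated siControl replicate 1, the highest of the untreated libraries in this list, and for 9 without untreated siMondoA replicate 1 or 3. The list's median with siMondoA in untreated cells was log2 -0.29, with 0 genes higher and 8 lower, and without untreated siControl replicate 1 it was 0.12, with 3 higher and 1 lower. With the replicate number as a block 42 of the 52 rose, and 51 in a fit of these 6 libraries with that block, which called 2159 genes higher and 2568 lower. The list's count was 52 without a low-count filter, 47 when the 2 groups were fitted alone, 22 to 30 when any 1 of the 6 libraries was left out, and 20 with DESeq2.

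**Figure D4:**
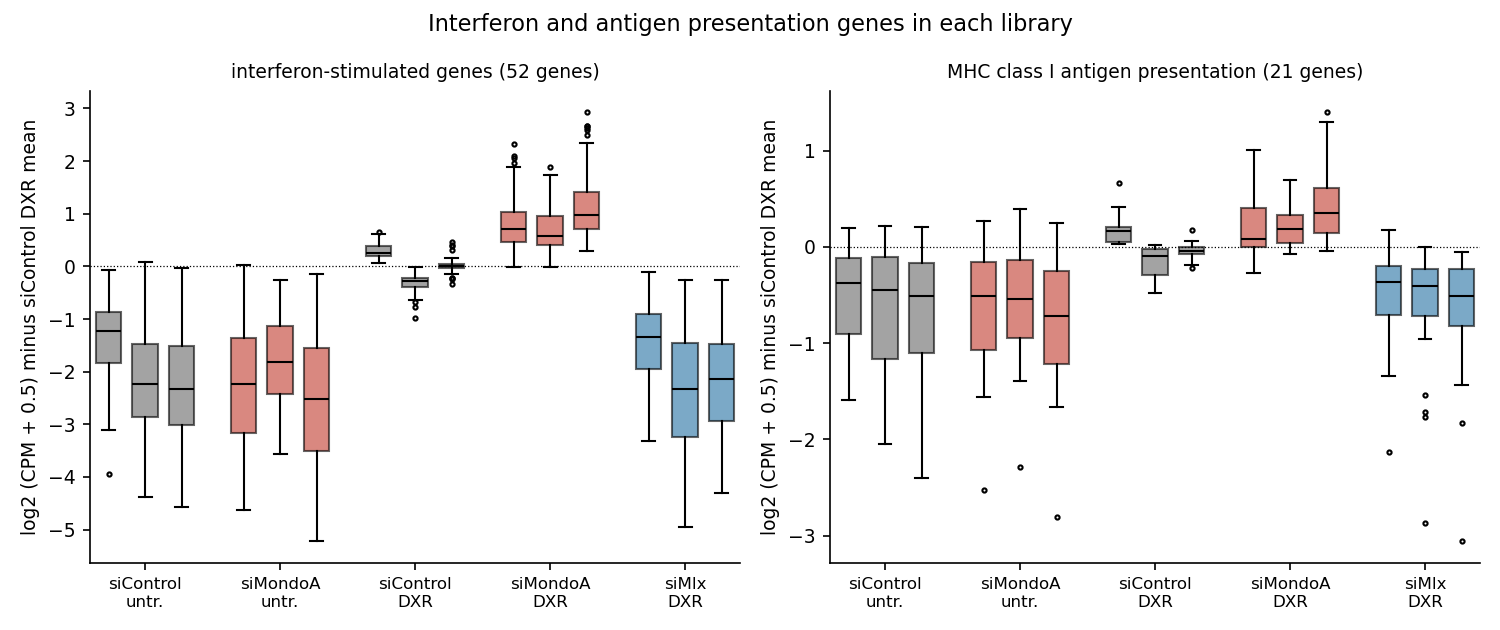
Log2 (CPM + 0.5) of each list gene minus its siControl DXR mean (y axis), as 1 box a library in 5 groups (x axis), with the median as a line, the quartiles as the box and outlying genes as points. Interferon-stimulated gene medians are 0.58 to 0.97 in siMondoA DXR, -0.28 to 0.25 in siControl DXR and -2.32 to -1.34 in siMlx DXR.

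The sensing genes upstream were split. Of 22 sensing and receptor genes 8 rose and 3 fell, beside 10.9% and 13.9% of all tested genes. TLR3, the endosomal receptor of double-stranded RNA, stood at 46.7, 28.8 and 32.6 CPM against 73.9, 64.03 and 92.7 CPM (log2 1.09, SE 0.17). IFI16, a DNA sensor, rose by 0.74, the DNA exonuclease gene TREX1 by 0.80 and ZBP1, a sensor of Z-form nucleic acid, by 2.32. IFNGR1, a receptor chain for interferon gamma, went down, from 20.8, 21.2 and 20.3 CPM to 6.57, 5.88 and 5.4 CPM, with no overlap (log2 -1.80, SE 0.09, adjusted p = 1.16e-11). TLR4 fell by 0.35 and IFNAR1, a chain of the type I interferon receptor, fell by 0.19. With the block in a fit of these 6 libraries 5 of the list fell.

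Of 21 genes of MHC class I presentation 9 rose and 0 fell, beside 10.9% and 13.9% of all tested genes. HLA-E stood at 447.5, 377.9 and 419.3 CPM against 549.5, 538.9 and 685.3 CPM (log2 0.51, SE 0.08), though reads of near-identical HLA genes may be shared among them. PSMB9, an immunoproteasome subunit, stood at 19.5, 10.2 and 15.1 CPM against 29.6, 23.8 and 39.05 CPM (log2 1.04, SE 0.20). PSMB8 rose by 0.44, PSMB10 by 0.31 and the proteasome activator gene PSME1 by 0.28. The count was 5 without siControl DXR replicate 2, and 5 without siMondoA DXR replicate 3, the library highest in interferon-stimulated genes.

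Death receptor and p53 genes moved in both directions. Among the 38 p53 targets tested, 13 were higher and 6 lower, beside 10.9% and 13.9% of all tested genes. The list's median was log2 0.12. TNFRSF10B, a death receptor for TRAIL, stood at 310.9, 300.4 and 306.2 CPM against 493, 469.8 and 476.7 CPM (log2 0.65, SE 0.05, adjusted p = 3.32e-09). TNFRSF10D, a decoy receptor for TRAIL, stood at 130.5, 282.9 and 222.1 CPM against 78.8, 85.2 and 61.5 CPM (log2 -1.49, SE 0.21). TNFSF10 and TNFRSF10B were higher and TNFRSF10D lower, with no overlap in any of the 3. TNFSF10 was named on condition of no overlap, and both receptor genes for their small p. Over all tested genes 18.8% were higher and 20.1% lower without overlap. Other receptor genes of this family did not all follow: TNFRSF10A was not called, and TNFRSF11B, on the list of secreted factors, rose. BTG2 rose by 0.59, TP53I3 by 0.35 and PMAIP1, the BH3-only gene NOXA, by 0.85, from 46.7, 34.9 and 40.5 CPM to 77.8, 51.1 and 91.6 CPM. APAF1, the apoptosome scaffold, was tight within groups, at 29.1, 29.03 and 30.8 CPM against 13.5, 13.4 and 13.7 CPM (log2 -1.13, SE 0.06, adjusted p = 1.06e-10). ZMAT3, an RNA-binding p53 target, went from 357.1, 444.7 and 412.4 CPM to 219.8, 220.4 and 190.2 CPM (log2 -0.95). Of 13 BCL2 family genes 4 rose and 1 fell (2 without siMondoA DXR replicate 1). BBC3 (PUMA) rose by 0.62, BAX by 0.21 and the survival gene MCL1 by 0.24 (adjusted p = 0.007), and BCL2, another survival gene, fell from 3.31, 3.02 and 3.4 CPM to 1.52, 1.01 and 1.6 CPM (log2 -1.25).

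Of 36 tested secreted factors of senescent cells 6 rose and 7 fell, beside 10.9% and 13.9% of all tested genes. The list's median was log2 -0.03. IL6 stood at 7.69, 6.45 and 7.58 CPM in siControl and 11.7, 10.8 and 13.3 CPM in siMondoA, with no overlap (log2 0.72, SE 0.18, adjusted p = 0.00475). CCL5, a chemokine gene, rose by 1.29 and IL7 by 0.87. STC1, a secreted glycoprotein gene, fell from 156.3, 159 and 161.2 CPM to 90.05, 84.3 and 87.8 CPM (log2 -0.86), PLAU, urokinase, from 337.9, 350.2 and 364.3 CPM to 171, 192.6 and 169.3 CPM (log2 -0.98), and FGF2 from 270.7, 268.4 and 300.2 CPM to 142.2, 128.5 and 187.4 CPM (log2 -0.87). IL11 fell by 1.27 and INHBA fell by 0.38. With the block in a fit of these 6 libraries 11 of the list fell. Among 23 NF-kB genes the calls were fewer than the background of 10.9% higher and 13.9% lower: 2 rose, IL6 and PTGS2, the cyclooxygenase gene (log2 0.85, adjusted p = 0.0457), and 2 fell, NFKBIE (-0.42) and BIRC2 (-0.26). The call of PTGS2 was lost without siControl DXR replicate 2 or 3 or siMondoA DXR replicate 1 or 2 and with DESeq2, and 1 fall was left without any of siControl DXR replicates 1 to 3 or siMondoA DXR replicates 1 and 2. With the block in the 6 libraries 5 rose and 5 fell.

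Of 47 matrix genes 4 rose and 5 fell, both under the background of 10.9% and 13.9%. The falls were 8 with the replicate block, and in the 6 libraries with that block 9 rose and 16 fell. LOX, a collagen crosslinker, fell by 0.35, TGFBI fell by 0.36, FBN2 fell by 0.21 and NID1 fell by 0.27, while LOXL3 rose by 0.70, DCN by 0.82 and FBN1 by 0.26. The rises numbered 1 without siControl DXR replicate 2 or 3 or siMondoA DXR replicate 1, and 2 without siMondoA DXR replicate 3. Of 19 epithelial and mesenchymal genes 3 fell and 2 rose, near the same background shares. SNAI2, a repressor of epithelial genes, stood at 13.3, 9.98 and 11.4 CPM against 5.67, 5.07 and 5.78 CPM (log2 -1.07, SE 0.12), ZEB2 fell by 0.42 and the tight junction gene CLDN1 fell by 0.42 (adjusted p = 0.0405). OCLN rose by 0.65 and CDH2 by 0.36 (adjusted p = 0.0385), and neither rise was left without siControl DXR replicate 2 or 3 or siMondoA DXR replicate 3. With the block in the 6 libraries 5 rose.

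Of 28 AP-1, NR4A and KLF factors 7 rose (11 without a low-count filter, and 11 with the block in the 6 libraries) and 4 fell. Over all tested genes 10.9% rose and 13.9% fell. ATF3, a stress-induced factor, stood at 6.83, 6.91 and 6.67 CPM against 16.9, 17.5 and 21.2 CPM (log2 1.45, SE 0.16, adjusted p = 1.15e-06). KLF4 stood at 2.9, 2.3 and 1.63 CPM against 6.96, 5.62 and 8.92 CPM, with the same rise in untreated cells (log2 1.65). NR4A2, an orphan nuclear receptor, rose by 1.44, IER2 by 0.51 and KLF9 by 0.63. FOSL1, an AP-1 subunit, fell from 205.7, 216.3 and 212.1 CPM to 95.7, 110.8 and 131.8 CPM (log2 -0.91, SE 0.13), KLF3 fell by 0.40 and KLF12 fell by 0.23. Falls numbered 2 without siMondoA DXR replicate 2 or 3.

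Of 30 tested genes of glycolysis and pyruvate fate 11 fell and 2 rose, beside 13.9% and 10.9% of all tested genes. The list's median was log2 -0.10. PGAM1, phosphoglycerate mutase, stood at 1140, 1110 and 1105 CPM against 876, 846.5 and 880.6 CPM (log2 -0.37, SE 0.05). ENO2, an enolase, stood at 84.3, 98.1 and 85.9 CPM against 52.7, 64.2 and 49.1 CPM (log2 -0.69, SE 0.11). SLC16A1, a lactate transporter gene, fell by 0.43, PFKFB4 fell by 0.44 and PFKFB2 fell by 0.58. SLC2A3, a glucose transporter gene, rose by 0.30 and PDHA1, of pyruvate dehydrogenase, by 0.17 (adjusted p = 0.0265). Falls numbered 7 without siControl DXR replicate 2 or 3 and 6 without siMondoA DXR replicate 3, and 1 rise was left without siControl DXR replicate 1 or 2 or siMondoA DXR replicate 2. Of 23 targets of the hypoxia factor HIF 10 fell and 3 rose, among the falls the mitophagy receptor genes BNIP3, from 105.1, 94.4 and 103.9 CPM to 69.6, 67.6 and 72.6 CPM (log2 -0.53), and BNIP3L, from 309.8, 337.7 and 345.5 CPM to 234.7, 239 and 239.1 CPM (log2 -0.48). KDM3A fell by 0.35. ADM rose by 0.38, STC2 by 0.19 and EGLN1 by 0.17 (adjusted p = 0.0495, lost in 9 alternatives, among them the replicate block). These lists share PFKFB4, PDK1 and SLC2A1, of which PFKFB4 and PDK1 are among the falls of both. Other genes stand in more than 1 list too.

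Antioxidant genes included a large fall and a large rise. PRDX3 (chr10:119167703-119178833), the mitochondrial peroxiredoxin that removes hydrogen peroxide, stood at 194.2, 197.4 and 191.7 CPM in siControl DXR and 75.01, 69.5 and 71.4 CPM in siMondoA DXR. The groups were each within a few CPM and far apart (log2 -1.43, SE 0.05, adjusted p = 2.27e-13). In siMlx DXR it was at 180.6, 177.7 and 173.3 CPM, close to the controls. SLC7A11, the cystine importer that feeds glutathione synthesis, stood at 70.2, 55.6 and 53.3 CPM against 170.3, 153.1 and 131.7 CPM (log2 1.35, SE 0.15, adjusted p = 1.66e-06). GSS, glutathione synthetase, rose by 0.50 and PRDX1 by 0.17, whereas PRDX4 fell by 0.19 and HMOX1 fell by 0.49. Over the 30 peroxiredoxin, thioredoxin and NRF2 genes 4 rose and 3 fell, near the 10.9% and 13.9% of all tested genes (2 rose without siControl DXR replicate 1, and 6 fell with the block in the 6 libraries). GLRX, the fourth rise, stood at log2 0.27 (adjusted p = 0.045) and lost its call in 6 alternatives. In the pentose phosphate pathway, which makes NADPH, PGD rose from 215.3, 220.0 and 194.4 CPM to 332.1, 327.4 and 298.2 CPM (log2 0.60, SE 0.06) and TKT by 0.23, while RPIA fell by 0.71 and TIGAR, which diverts sugar into the pathway, fell by 0.33, 2 and 2 of 10 tested (4 rose with the block in the 6 libraries, and 1 fell without siControl DXR replicate 2 or siMondoA DXR replicate 1).

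Among 35 targets of the stress factor ATF4 and serine synthesis genes 6 rose and 5 fell, beside 10.9% and 13.9% of all tested genes (3 fell without siMondoA DXR replicate 3). WARS1, tryptophanyl-tRNA synthetase, which is also interferon-responsive, rose by 0.72 and AARS1 by 0.23. MTHFD2, a mitochondrial folate enzyme, fell from 76.02, 70.8 and 75.8 CPM to 48.9, 37.5 and 45.7 CPM (log2 -0.76, SE 0.09), the arginine transporter gene SLC7A1 fell by 0.73 and SESN2 fell by 0.42. Of 25 endoplasmic reticulum stress genes, where calls were no more frequent than over all genes, 3 fell, among them the stress sensor ERN1 (log2 -1.09) and the chaperone DNAJB9 (-0.65), and 2 rose, XBP1 (0.33) and EDEM2 (0.27), with 6 falls and 5 rises under the block in the 6 libraries. Sterol and fatty acid synthesis had 2 rises and 2 falls of 34 tested, and 0 falls without siControl DXR replicate 1 or 3 or siMondoA DXR replicate 2, while the block in the 6 libraries gave 7 rises and 5 falls.

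Autophagy and lysosome genes stayed near the background. RUBCN (listed as KIAA0226, chr3:197671393-197749727) encodes Rubicon, which inhibits autophagosome maturation. It stood at 49.8, 48.99 and 53.7 CPM in siControl DXR and 59.9, 57.1 and 78.9 CPM in siMondoA DXR. Replicate 3 was highest in both groups and no library overlapped (log2 0.36, SE 0.09, adjusted p = 0.00629, lost in 1 alternative). With siMlx in DXR it was at 24.1, 21.6 and 23.9 CPM, and siMondoA stood above siMlx by log2 1.49 (SE 0.10, adjusted p = 3.18e-10). TFEB, a master regulator of lysosomal genes, stood at 9.17, 8.24 and 7.82 CPM and 7.92, 8.26 and 8.54 CPM, overlapping (log2 -0.03, SE 0.10, adjusted p = 0.878), and edgeR's test called none of the 17 tested TFEB family and folliculin genes, with 1 rise under the replicate block, none with DESeq2, and 3 higher and 2 lower at an unadjusted p under 0.05. Of 47 autophagy genes 7 rose and 4 fell, beside 10.9% and 13.9% of all tested genes. The selective receptors OPTN (log2 0.47), CALCOCO2 (0.34), TAX1BP1 (0.28) and NBR1 (0.19) rose. ATG12, which is conjugated to ATG5, fell by 0.38, ULK2 fell by 0.60 and the fusion SNARE gene STX17 fell by 0.24. Falls numbered 2 without replicate 1 of siControl DXR or of siMondoA DXR, and 8 with the block in the 6 libraries.

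Of 52 lysosomal genes 6 fell and 2 rose, beside 13.9% and 10.9% of all tested genes. The proton pump genes ATP6V1C1 (log2 -0.53) and ATP6V1B2 (-0.41) fell with narrow groups, the first from 71.9, 70.1 and 73.5 CPM to 49.9, 49.9 and 49.1 CPM. GUSB fell by 0.40, HEXA fell by 0.34 and CTSA fell by 0.25. SGSH rose by 0.40 and NPC1 by 0.21. Rises numbered 4 with the replicate block, and in the 6 libraries with that block 9 rose and 17 fell.

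In the mitochondria list 4 of 32 rose and 6 fell, near the 10.9% and 13.9% of all tested genes. PINK1, the kinase that marks damaged mitochondria, stood at 39.9, 45.0 and 44.2 CPM against 31.3, 34.1 and 30.01 CPM (log2 -0.43, SE 0.08). POLG, the mitochondrial DNA polymerase, fell by 0.41 and MTFR1 fell by 0.29. BCL2L13, a mitophagy receptor, rose by 0.35, the fission gene DNM1L by 0.19 and the protease gene OMA1 by 0.53. Rises numbered 2 without siControl DXR replicate 1. Of 76 nuclear genes of oxidative phosphorylation 8 rose, a share like the 10.9% of all genes, and 0 fell (3 with the block in the 6 libraries). The rises were 4 without siControl DXR replicate 1 and 5 without siControl DXR replicate 3 or siMondoA DXR replicate 2. UQCR10, of complex III, stood at 50.4, 54.9 and 52.6 CPM against 78.8, 77.3 and 77.5 CPM (log2 0.56, SE 0.06), and NDUFA9 rose by 0.35. Of 75 mitochondrial ribosomal protein genes 13 rose and 4 fell, but rises numbered 4 to 8 when any 1 of the 6 libraries was left out, with 4 without siControl DXR replicate 1, and falls 2 without siControl DXR replicate 2 or 3 or siMondoA DXR replicate 3. MRPS31 rose by 0.65 and MRPL19 fell by 0.35. Of 77 cytosolic ribosomal protein genes only RPL23 passed, lower at log2 -0.22, and of 40 ribosome biogenesis genes 6 rose and 2 fell (1 fall without siControl DXR replicate 1 or 3 or siMondoA DXR replicate 1 or 2).

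The list of ciliary axoneme genes, most of them known from motile cilia, was drawn up knowing that siMondoA raised such genes in this series, so its counts describe the list and are no independent evidence of a direction. Of 85 listed, 47 had enough counts to be tested, and 16 of these rose and 0 fell (background 10.9% higher and 13.9% lower), with a median of log2 0.49. SPEF1 stood at 0.459, 0.665 and 0.479 CPM against 1.97, 2.18 and 2.04 CPM (log2 1.94, SE 0.31, adjusted p = 9.09e-05). PIERCE1 (listed as C9orf116), a microtubule inner protein gene, stood at 3.82, 3.33 and 4.51 CPM against 8.09, 7.29 and 6.22 CPM (log2 0.89), the dynein heavy chain gene DNAH7 at 3.06, 2.25 and 2.16 CPM against 4.21, 5.98 and 5.12 CPM (log2 1.04), and DNALI1 rose by 0.56. Most of these levels were low, and no siMondoA library of these 4 overlapped a control. The median in untreated cells was 1.09, and the interaction passed for 10 of the 47, all with the effect lower in DXR (background 4.28%). Against siMlx in DXR 27 were higher and 1 lower, beside 18.9% and 20% of all genes. Of 11 tested clustered histone genes 3 rose, H2BC12 (0.40), H2BC21 (0.57) and H2BC5 (0.65), though near-identical copies may share reads.

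The interaction was then read across all genes. Time after transfection may differ between the 2 conditions and cannot be told apart from DXR here. The effect of siMondoA was higher in DXR than in untreated cells for 798 genes (5.84%) and lower for 586 (4.28%). Under upper-quartile scaling the split turned to 655 higher and 788 lower. The count of lower genes was 316 without siControl DXR replicate 2 and 377 without untreated siMondoA replicate 1. Of the 8 named in the higher direction 7 fell in both conditions, by less in DXR. SP3, a GC-box binding factor, was at 56.9, 58.5 and 54.9 CPM and 28.6, 24.97 and 26.2 CPM in DXR (log2 -1.09) and at log2 -2.35 in untreated cells, a difference of 1.26 (SE 0.10, adjusted p = 8.5e-07). PTK2, focal adhesion kinase, was at log2 -0.94 in DXR and -1.68 in untreated cells, DMAC2 (listed as ATP5SL) at -1.05 and -2.88, the kinase gene MAP4K4 at -1.06 and -1.92, SAP130 at -0.41 and -1.66, the RNA-binding gene QKI at -0.76 and -1.76, and PNRC2 at -0.79 and -1.77. ZNF618 alone of the 8 rose in DXR (0.41) and fell in untreated cells (-0.46).

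In the other direction 7 of the 8 had a positive log2 in both conditions, smaller in DXR. PXN, the gene of paxillin, was at log2 0.27 in DXR and 0.93 in untreated cells, TMEM134 at 0.32 and 1.51, the kinesin gene KIF3B at 0.18 and 0.76, the deacetylase gene HDAC3 at 0.55 and 1.14, and SLC2A3 at 0.30 and 0.95. ATOSB (listed as FAM214B, 0.16 and 0.90) and ABCA3 (0.12 and 0.90) did not pass in DXR. KCNK3, a potassium channel gene, fell in DXR (-0.43) and rose in untreated cells (0.56). Structural noncoding RNAs moved with the untreated groups: the median of 8 tested stood at log2 1.04, 1.77 and 0.79 in untreated siControl libraries and -0.15, -0.09 and -0.35 in untreated siMondoA libraries, relative to siControl DXR. In DXR the groups overlapped, at -0.17, 0.13 and 0.07 and -0.18, -0.04 and 0.14. The interaction itself passed for 4 of these 8, higher in DXR, and 0 lower (background 5.84% and 4.28%). Whether they bear on the other genes' interaction was not tested.

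**Figure D5:**
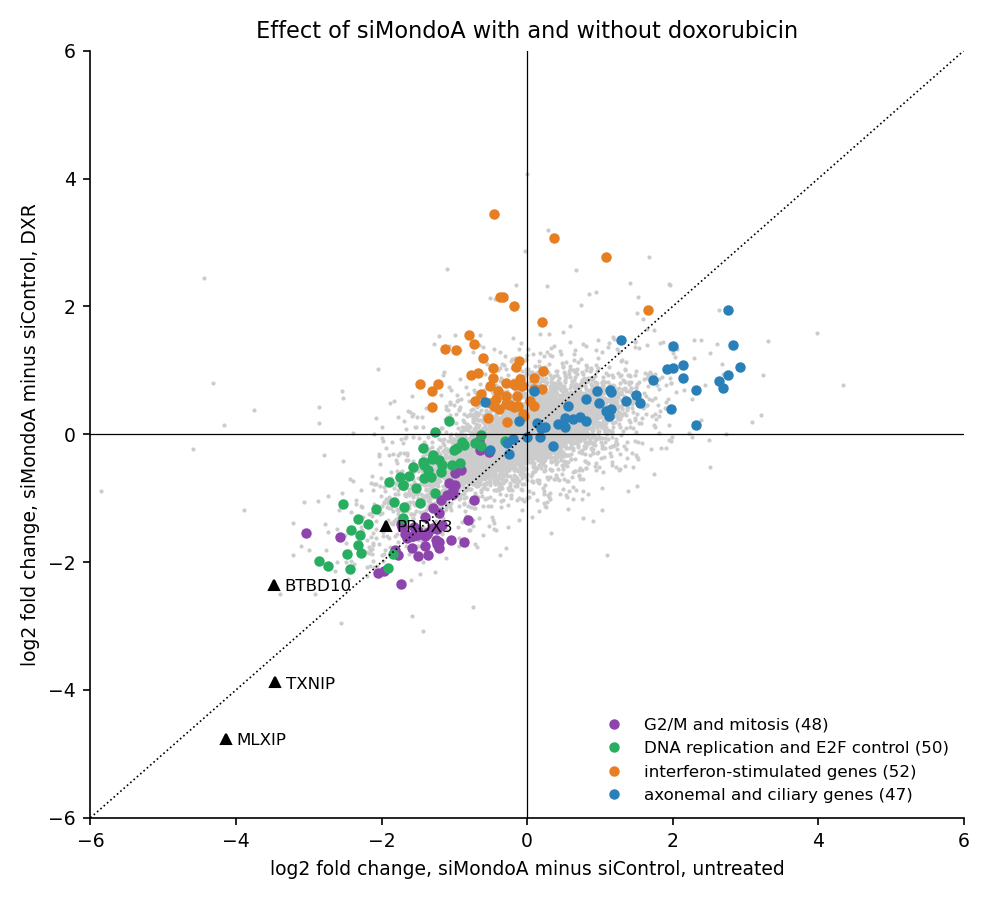
Each point is a tested gene, by its log2 fold change with siMondoA in untreated cells (x axis) and in DXR-treated cells (y axis), with 4 gene lists in colour, 4 single genes as triangles and the line of equal effect dotted. Interferon-stimulated genes lie above 0 on the y axis (median 0.78) and mostly left of 0 on the x axis (median -0.29, or 0.12 without untreated siControl replicate 1), and ciliary genes lie right of 0 (median 1.09), and mitosis genes lie lower left.

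Depleting MondoA and depleting its partner MLX were compared directly in DXR. Between these groups 2591 genes (18.9%) were higher and 2740 (20%) lower with siMondoA. DCTD, a deoxycytidylate deaminase, stood at 26.2, 26.4 and 25.2 CPM with siMlx and 148.7, 137.7 and 147.9 CPM with siMondoA (log2 2.48, SE 0.06, adjusted p = 3.97e-16), and at 135.3, 139 and 146.3 CPM with siControl. MLX itself was higher by 2.99, MRFAP1 by 1.70, the Notch effector gene RBPJ by 1.86, HIPK1 by 1.33, FKBP3 by 1.42, the cullin gene CUL5 by 1.72 and EI24 by 1.26. In these 8, apart from MLX, siMondoA differed from siControl by less than 0.35 on the log2 scale, and siMlx was the low group.

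Lower with siMondoA than with siMlx were MLXIP (-4.88) and 7 genes that siMondoA had lowered against siControl. PRRC1 stood at 123.2, 124.5 and 130.5 CPM with siControl, 34.4, 30.6 and 30.6 CPM with siMondoA and 143.7, 143.2 and 144.2 CPM with siMlx. TNS3, the focal adhesion gene tensin 3, stood at 403.3, 422.4 and 440.6 CPM, 122.4, 136.6 and 134.4 CPM and 378.2, 405.6 and 437.3 CPM in the same order. Against siMlx BTBD10 was at log2 -2.49, GNPDA1 at -2.21, the small GTPase gene RAP1B at -1.33, GNPTAB, which acts in tagging lysosomal enzymes, at -1.97 and BLOC1S6 at -1.29. For PRRC1 and TNS3 the siMlx libraries lay with the controls. Comparisons of siMondoA and of siMlx with siControl use the same control libraries, so their values are given side by side only.

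Words of 7 bases in 3′ UTRs moved with the falls. Among words held by at least 100 genes, the 3 with the lowest t statistic in untreated cells were taken. That statistic is the difference in mean siMondoA log2 change between holders and other genes, over its standard error. These 3 words share most of their letters, and TCCAGTA is the one whose holders fell most often in DXR. In DXR 32.1% of 1242 genes whose 3′ UTR holds TCCAGTA fell, and 25.3% of 3439 genes that hold at least 1 of the 3, against 11.1% of 8840 genes that hold none. UTRs that hold 1 are longer, with a median of 2922 bases against 1004. With siMlx in DXR the shares lower were 21.8% and 16%. BTBD10, PRRC1 and ZMAT3 hold all 3, CCNA2, IFNGR1 and TNFRSF10D hold 2, MLXIP and PABIR2 hold 1, and TXNIP, PRDX3, RRM2, APAF1 and PLAU hold none. The part of these words in the results was not tested.

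Markers of other cells were set beside these results. The summed level of 12 fibroblast markers was 910 to 1010 CPM in siControl DXR and 839 to 905 in siMondoA DXR. Of 10 tested 3 were higher (PDGFRA, PRRX1 and DCN) and 2 lower (THY1 and PDGFRB), beside 10.9% and 13.9% of all tested genes. The 12 blood and endothelial markers summed to 7.06 to 7.38 CPM and 5.61 to 6.28 CPM. HBB was at 0 counts in both groups, and KDR, a receptor of vascular growth factor, fell by 0.92 (adjusted p = 0.0167), a call lost without siControl DXR replicate 1 or siMondoA DXR replicate 1 or 3. Retinal pigment epithelium markers summed to 1170 to 1220 CPM and 1320 to 1400 CPM. Most of that sum was KRT8 and KRT18, at means of 670 and 481 CPM in siControl DXR and 750 and 546 CPM in siMondoA DXR. MITF went from a mean of 32.3 to 30.7 CPM and OTX2 from 13.8 to 12.7 CPM. Of the 7 tested, 3 had a positive log2 and 4 a negative one, and edgeR's test called none. DESeq2 likewise called none, and 0 were under an unadjusted p of 0.05, but in the 6 libraries with the replicate block 2 rose. In bulk RNA fewer cells of a kind and less RNA per cell cannot be told apart.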

How the data were processed

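RNA from 18 RPE-1 libraries in 6 groups of 3 was sequenced after TruSeq Stranded mRNA preparation, per the labels' protocols. Reads were written with bcl2fastq and aligned to GRCh38 with TopHat2 2.1.1, per the submitters' processing notes. How reads were counted, on which annotation and with which strand option, is not given in the sources used here. The authors deposited raw counts per gene for each library, and all tests used these counts as deposited. The authors also deposited RPKM values, which were used only to check that each gene has 1 implied length (24846 genes with a count, within 0.001 of itself). Of 33121 listed names 23418 were current symbols and 1766 older ones, and the unmatched names held 0.311% of counts.

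Library totals of the 6 libraries were 18392192 to 21858817, which limits precision most for genes of low count. All 18 libraries were fitted together in edgeR 4.0.16 (R 4.3.3) with TMM scaling, filterByExpr, 1 mean per group and the two-sided quasi-likelihood test, with 12 residual degrees of freedom. Benjamini-Hochberg adjustment ran over all 13676 tested genes, with a threshold of 0.05. Contrasts were siMondoA against siControl in DXR, the same in untreated cells, their difference (interaction), and siMondoA against siMlx in DXR. Alternatives were RLE and upper-quartile scaling, DESeq2 1.42.0, other filters, the replicate number as a block, the compared groups fitted alone, and each library left out. 2 more were chosen after seeing the data: the 6 libraries with that block, and the 9 DXR libraries alone. The replicate numbers come from the labels, which do not say what they mark. Deviations from the group means of same-numbered siControl DXR and siMondoA DXR libraries correlated at 0.175 to 0.274 over 3 pairs, and those of differently numbered ones at -0.224 to -0.014. Within DXR the numbers were therefore taken to pair the samples. Untreated and DXR libraries of the same siRNA and number correlated at 0.147, 0 and 0.071 for siControl and 0.205, -0.055 and 0.134 for siMondoA. A block over all 18 libraries thus assumes a pairing across conditions that these values do not show throughout. The reported test used no pairing.

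The members and the 39 gene lists were chosen with earlier results of these data known. Genes named are MLXIP, MLX, TXNIP, ARRDC4, PRDX3, RUBCN, TFEB, CDKN1A, CDKN2A, LMNB1, MKI67 and IL6. To these come the 12 largest changes in each direction, without overlapping groups and averaging 5 CPM or more where higher. From each list described come up to 5 of smallest p in the main direction and up to 3 in the other, and from the other 2 comparisons 8 in each direction. Genes outside this rule were chosen after their values were seen: PLK1, CDC20, CCNB2, CCNB1, AURKB, IFIT3, CENPA, BUB3, TNFRSF10A, TNFRSF11B and the markers. Some genes that the rule names are not reported here. Promoter sequences are RefSeq's (GRCh38.p14). On counts simulated for siMondoA DXR against siControl DXR over 13676 genes, the fit recovered 82% of 100 genes changed by log2 1 and 66% of 100 changed by log2 0.5, and called 0.0594% of unchanged genes. The simulated counts were drawn independently for each gene and library. They hold no shift shared by many genes of a library, as seen in the real ones, so these rates need not carry over. No pair of libraries of a group agreed within sampling noise (chi-square per degree of freedom 6.58 to 10.3). CDKN2A overlaps an antisense gene, and histone and HLA genes have near-identical copies, so their counts are uncertain.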

Additional observations from a re-analysis of the deposited data

Results flagged for a closer look

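For 26 of the named genes edgeR's interaction test found the log2 effect of siMondoA in DXR-treated cells to differ from that in untreated cells, and each is given as the effect in DXR minus the effect in untreated cells. Untreated and DXR libraries carry different tags in their column names, which the labels do not explain, and whether harvest days differed is not stated. Untreated cells are listed with 2 days of transfection and no DXR. Any difference in time after transfection therefore cannot be told apart from DXR.

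5 of them had the largest values, all genes named for a large rise in DXR. That rise is a term of the difference, so the way they were chosen favoured large positive values. The difference was BATF2 2.49 (SE 0.41, adjusted p = 0.000647), IFIT2 2.49 (SE 0.29, adjusted p = 2.74e-05), OASL 2.52 (SE 0.74, adjusted p = 0.0348), RTP4 2.20 (SE 0.61, adjusted p = 0.026) and OAS2 2.35 (SE 0.64, adjusted p = 0.0244). In all 5 the log2 change in untreated cells was below 0, from -0.80 in OAS2 to -0.16 in BATF2, and in DXR it was above 0, from 1.55 in OAS2 to 2.33 in BATF2. Without untreated siControl replicate 1 the untreated change was 0.13 in BATF2 and 0.11 in OASL, and from -0.15 in RTP4 to -0.04 in IFIT2 in the others. Without that library the interaction calls of OASL, RTP4 and OAS2 were lost, as they were with DESeq2 and without untreated siMondoA replicate 1 or 3. That of OASL was also lost without untreated siControl replicate 3, siControl DXR replicate 2 or 3 or siMondoA DXR replicate 3, that of RTP4 without siControl DXR replicate 2, and that of OAS2 without siMondoA DXR replicate 3.

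Genes that fell in both conditions, by less in DXR, were SP3 1.26 (SE 0.10, adjusted p = 8.5e-07), PTK2 0.73 (SE 0.06, adjusted p = 9.92e-07), DMAC2 1.83 (SE 0.15, adjusted p = 9.92e-07) and MAP4K4 0.85 (SE 0.07, adjusted p = 9.92e-07). Others with the same order were SAP130 1.25 (SE 0.11, adjusted p = 2.38e-06), QKI 1.00 (SE 0.09, adjusted p = 3.63e-06) and PNRC2 0.98 (SE 0.09, adjusted p = 3.81e-06). PRDX3, PABIR2 and BTBD10 fell in both too, and the differences were PRDX3 0.50 (SE 0.07, adjusted p = 0.000263), PABIR2 0.90 (SE 0.22, adjusted p = 0.0138) and BTBD10 1.12 (SE 0.11, adjusted p = 5.3e-06). ZNF618 alone of these rose in DXR, with a difference of 0.87 (SE 0.08, adjusted p = 4.95e-06).

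Effects that were lower in DXR were PXN -0.66 (SE 0.07, adjusted p = 1.18e-05), TMEM134 -1.19 (SE 0.13, adjusted p = 1.18e-05), KIF3B -0.58 (SE 0.07, adjusted p = 4.48e-05) and HDAC3 -0.60 (SE 0.07, adjusted p = 4.75e-05). Further ones were ATOSB -0.74 (SE 0.09, adjusted p = 6.84e-05), ABCA3 -0.79 (SE 0.11, adjusted p = 0.000141), SLC2A3 -0.65 (SE 0.09, adjusted p = 0.000169) and KCNK3 -0.99 (SE 0.11, adjusted p = 1.35e-05). For CDKN1A the difference was -0.70 (SE 0.11, adjusted p = 0.000379), the log2 change being 0.44 in DXR and 1.13 in untreated cells. The siRNA target itself differed: MLXIP was at log2 -4.77 in DXR and -4.13 in untreated cells, a difference of -0.63 (SE 0.20, adjusted p = 0.0469), and the call was lost in 10 alternatives. Its part in the other differences was not tested.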

How the results depend on the processing

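The counts of genes higher and lower in DXR kept within 1.5 times of the reported ones under all alternatives, at 1082 to 1259 higher and 1615 to 1660 lower when 1 library was left out and 1729 and 2101 with the replicate block. DESeq2 gave 65 genes higher by at least 2-fold against 113. Genes with a lower effect in DXR in the interaction numbered 316 to 579 when 1 library was left out, against 586, with 316 without siControl DXR replicate 2. TFEB, which did not pass in any direction, was at log2 -0.08 to 0.04 when 1 library was left out, and at 0.04 without siControl DXR replicate 1. The cause was not tested. Of 214 named genes called in DXR 164 were called in every alternative and 0 reversed, and of 26 called in the interaction 22 were, the others being MLXIP, OASL, RTP4 and OAS2, and of 16 against siMlx 16. With the replicate number as a block the interaction had 1016 higher and 802 lower, the comparison with siMlx 2787 and 2986, and the untreated one 3413 and 3321. Beyond the values given beside the results, that block ended no named call. Low-count genes, such as ARRDC4 and CXCL10, limit what the depth can show.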
